A study of Homo sapiens with 8 samples.

Results

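Core autophagosome formation machinery is examined here as 34 genes, named by their role and found by symbol among the 61806 genes of the count table. The genes encode the ULK complex, the class III PI3K complexes, the WIPI proteins, the lipid transfer proteins and scramblases, and the enzymes of ATG12 and ATG8 conjugation, with the tethering factor EPG5. Wild-type N/TERT-1 cells, an immortalized human keratinocyte line, were treated with ethanol, the solvent control, or with oligomycin and antimycin A (O/A) for 4 hours. Oligomycin blocks ATP synthase and antimycin A blocks cytochrome c reductase, so that the pair depolarizes mitochondria. Each condition has 4 libraries of polyadenylated RNA, from independent experiments, and no other cell line, genotype or time point was sequenced. The comparison asks which of these genes changed their mRNA level when mitochondria were depolarized.

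Autophagosomes form in steps that these proteins carry out in order. The ULK kinase complex starts the process, the class III PI3K complex then marks membrane with PI3P, and WIPI proteins read that lipid. ATG2 proteins move lipid from the ER into the growing membrane while the scramblases ATG9A, VMP1 and TMEM41B redistribute it between leaflets. Finally, conjugation enzymes attach ATG8 proteins such as LC3 to the membrane, a reaction that the ATG12-ATG5-ATG16L1 complex directs. Much of this machinery is known to be regulated at the protein level, by phosphorylation and recruitment, which mRNA counts do not measure.

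The DNA before the transcription start is shown for the 4 genes with the largest increases described in the following paragraphs. The sequences are those of RefSeq on GRCh38.p14, written 5′ to 3′ on the strand of the gene, from 250 to 101 bases before the start. Capitals mark TCACGTGA, the extended core of the CLEAR element, a binding motif of the lysosomal transcription factors TFEB and TFE3.
ULK1, chr12:131894372-131894521, plus strand: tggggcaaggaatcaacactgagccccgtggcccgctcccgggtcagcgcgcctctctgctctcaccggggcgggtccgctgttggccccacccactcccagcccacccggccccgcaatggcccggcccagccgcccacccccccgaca
NRBF2, chr10:63133078-63133227, plus strand: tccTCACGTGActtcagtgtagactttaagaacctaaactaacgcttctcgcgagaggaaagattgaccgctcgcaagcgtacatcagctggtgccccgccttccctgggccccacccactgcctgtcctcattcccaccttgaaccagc
WIPI1, chr17:68457597-68457746, minus strand: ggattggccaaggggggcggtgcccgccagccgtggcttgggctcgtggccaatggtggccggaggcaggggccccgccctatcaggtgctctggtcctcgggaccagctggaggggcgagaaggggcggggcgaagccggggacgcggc
TMEM41B, chr11:9314694-9314843, minus strand: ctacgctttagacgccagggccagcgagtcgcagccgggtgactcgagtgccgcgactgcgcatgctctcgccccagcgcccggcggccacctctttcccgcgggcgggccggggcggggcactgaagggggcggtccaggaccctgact

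Of the 34 members, 29 had a RefSeq promoter window, which runs from 250 bases before to 50 after the start, and some had a window at more than 1 start. RB1CC1, UVRAG, WDR45B, ATG4D and EPG5 had no window. The members had 34 windows together. TCACGTGA was found, on either strand, in 2 of these 34 windows, those of NRBF2 and ATG3, against 0.98% of all 35116 windows. Its 6-base core CACGTG, which the longer motif contains, was found in 3 of the 34, those of NRBF2, ATG3 and ATG14. Over all windows its share was 7.26%. TGATGNAA, an element that C/EBP-ATF dimers such as ATF4 with a C/EBP factor can bind, was found only at the second start of WDR45, against 3.62% of all windows. GTAAACA, a forkhead motif bound by FOXO factors, overlapped it there and was found in no other member window, against 3.42% of all windows. A matched site of each other gene is shown with its flanks, with the motif in capitals.
ATG3, chr3:112561940-112561969, minus strand, site from base 5 after the start: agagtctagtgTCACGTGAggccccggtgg
ATG14, chr14:55411834-55411863, minus strand, site from 21 bases before the start: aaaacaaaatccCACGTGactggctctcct
WDR45, chrX:49079875-49079904, minus strand, site from 6 bases before the second start: gaagtagggccTGATGTAAacacccgagcc
The genes that carry these letters did not share a size of change. NRBF2, WDR45 and ATG14 were upregulated, with a log2(FC) of 1.13, 0.68 and 0.44, while ATG3 had a log2(FC) of 0.12 and was not called. ULK1, WIPI1 and TMEM41B, which were upregulated, held none of the 4 motifs in their windows, and DNA outside the windows was not searched. The part of these motifs in the changes was not tested.

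Library totals were 17210404 to 20999927 counts for ethanol, 17689760 to 19263046 for O/A, and 14893 genes had 10 or more counts in 4 or more libraries. Every one of the 34 members passed this minimum, and the lowest count of any member in any library was 220, for ATG10. The basal keratinocyte genes KRT5 and KRT14 stood at 1093.92 to 1494.52 and 931.98 to 1166.6 FPKM, while MLANA and TYR were listed at 0 in all libraries and COL1A2 had 1 count, in ethanol replicate 4. Of 6 fibroblast and 4 melanocyte markers, COL1A1 (2.38 to 2.94 FPKM) and PMEL (0.26 to 0.65 FPKM) passed the minimum, with overlapping conditions. KRT5 fell, with a log2(FC) of -0.30, and the differentiation keratin KRT10 rose, with a log2(FC) of 0.47. KRT1, another differentiation keratin, was listed at 0 in all libraries. The other keratinocyte markers, KRT14 (-0.09), TP63 (-0.05), COL17A1 (0.02), ITGA6 (0.14) and ITGB4 (0.15), were not called. The part of the KRT5 and KRT10 changes in the results was not tested. ASNS, DDIT3, CHAC1 and TRIB3, genes of the integrated stress response, rose with log2(FC) from 1.74 to 5.22. In bulk RNA such as this, fewer cells of a kind and less RNA per cell cannot be told apart.

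O/A raised a subset of the machinery by up to about 2-fold and lowered 2 genes of the PI3K complexes. Of the 34 members, 13 were upregulated and 2 were downregulated, where a call needs an absolute log2(FC) above 0.25 and an adjusted p of at most 0.05 by the quasi-likelihood test of edgeR. Over all genes tested 15.8% were upregulated and 18.9% downregulated, beside 38.2% and 5.88% of the members. In either direction this was 15 members (44.1%) and 34.7% of all genes tested. With an absolute log2(FC) above 0.5 there were 7 members (20.6%), each of them upregulated, and 17.7% of all genes tested in either direction. The median log2(FC) of the members was 0.14, beside -0.00 over all genes tested. With the adjusted p alone, 27 members passed, where 53.7% of all genes did. Of the 19 members not called, 12 had an adjusted p of at most 0.05 with a change within the fold threshold, 8 of them with a higher and 4 with a lower level in O/A. At least 1 gene rose in every sub-complex that has several members, as the plot of fold changes shows.

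**Figure D1:**
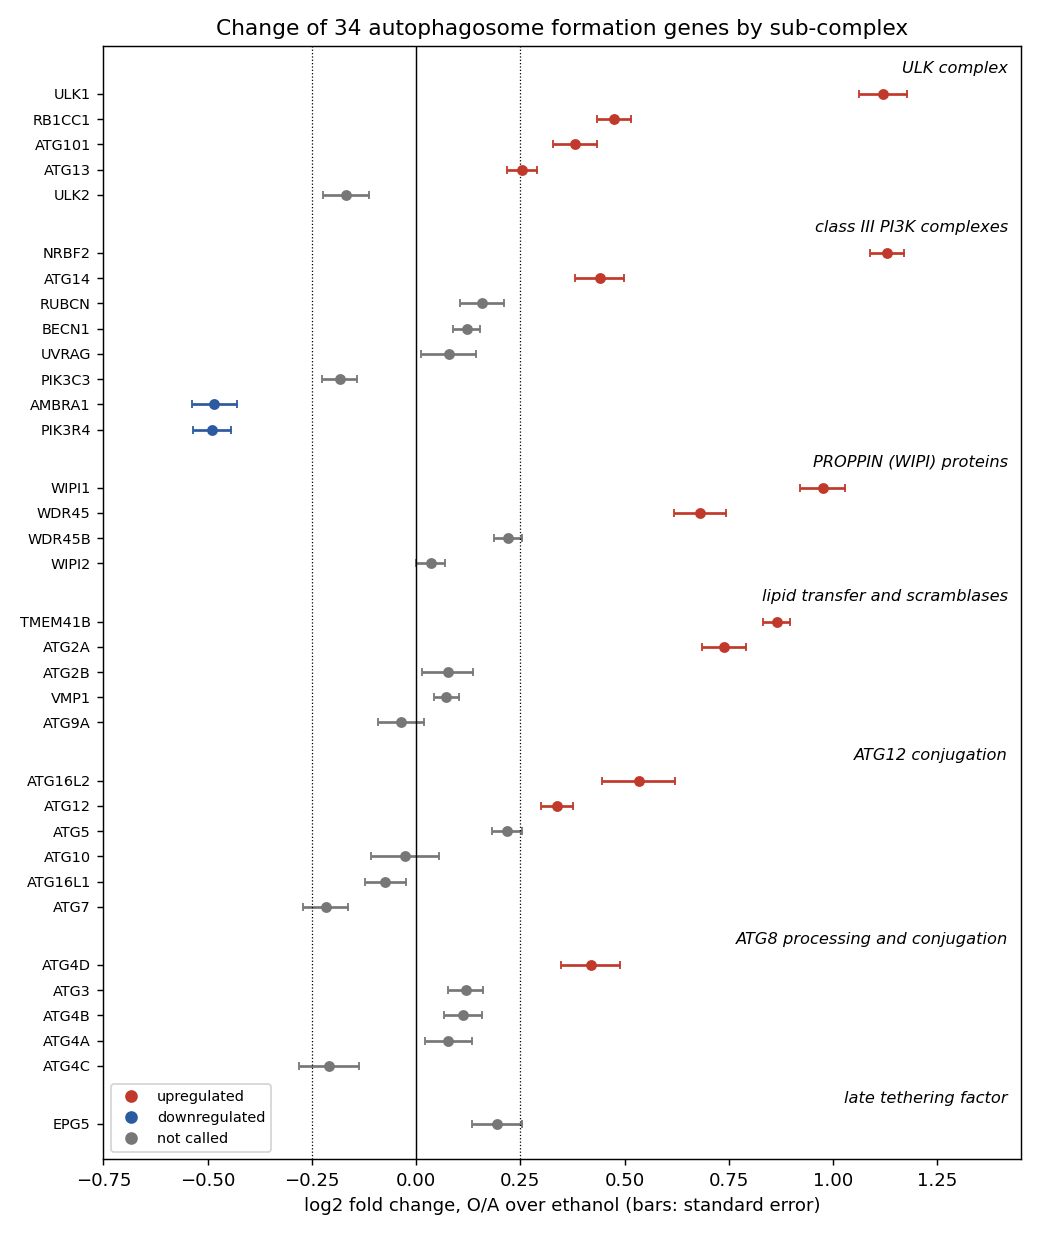
Log2 fold change of O/A over ethanol (x axis) for the 34 members (y axis), grouped by sub-complex, with the standard error as bars and dotted lines at the fold threshold of 0.25 in either direction. NRBF2 (1.13), ULK1 (1.12), WIPI1 (0.98) and TMEM41B (0.86) lie farthest to the right, and PIK3R4 (-0.49) and AMBRA1 (-0.48) are the 2 downregulated members.

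The libraries of the called members separated. Every O/A library lay above every ethanol library for 17 members and below for 5, while over all genes tested 22.8% lay above and 24.8% below. Thus 22 members (64.7%) had no overlap between the conditions, where 47.6% of all genes tested had none. Such a separation by itself fixes the exact two-sided permutation test at p = 0.0286, the smallest that 4 libraries against 4 allow. The test therefore adds nothing to the separation of these 22. Each of the 15 called members was among the 22.

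The ULK complex rose apart from one kinase. ULK1, the kinase that starts autophagosome formation, lies on chromosome 12 from 131894622 to 131923150. Its level was 3.49, 3.08, 3.36 and 4.00 FPKM in ethanol replicates 1 to 4, and 6.90, 7.25, 7.74 and 7.54 FPKM in O/A replicates 1 to 4. All 4 O/A libraries were above all 4 ethanol libraries. Its fold was 2.17, a log2(FC) of 1.12 with a standard error of 0.058 (adjusted p = 1.94e-16, quasi-likelihood test of edgeR). ULK2, its paralog, moved the other way without passing the fold threshold. It had 3.44, 3.83, 3.79 and 3.47 FPKM in ethanol, against 3.52, 3.11, 2.97 and 2.92 FPKM in O/A, a log2(FC) of -0.17 (adjusted p = 0.00851 from edgeR). The groups overlapped because O/A replicate 1 lay within the ethanol range.

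The partners of the kinases in this complex all rose. RB1CC1 (FIP200), the large scaffold of the complex, had 8.81, 8.56, 10.27 and 8.65 FPKM in ethanol, against 12.24, 12.37, 12.10 and 12.09 FPKM in O/A. Its log2(FC) was 0.47 with a standard error of 0.041 (adjusted p = 5.79e-13 from edgeR). ATG101, which stabilizes ATG13, went from 10.4 ± 0.299 to 13.1 ± 1.21 FPKM (SD, with n = 4 in each condition), a log2(FC) of 0.38. O/A replicate 4 had 11.39 FPKM of ATG101 and the other O/A libraries 13.39 to 14.21, all above the ethanol libraries. ATG13, the adaptor that ties ULK1 to the complex, had the smallest change among the 13 upregulated members. It lay between 10.79 and 11.33 FPKM in ethanol and between 12.25 and 13.29 FPKM in O/A, and its log2(FC) of 0.26 lay at the threshold. Without O/A replicate 2 it was 0.24, within the threshold.

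The class III PI3K complexes were split. Of their 8 members, 2 rose, 2 fell and 4 were not called. NRBF2, a regulatory subunit that binds ATG14 and promotes dimers of the complex, showed the largest log2(FC) of the 34 members. Its level was 23.24, 21.85, 23.75 and 22.12 FPKM in ethanol, against 50.11, 48.85, 48.53 and 45.08 FPKM in O/A. All O/A libraries lay far above the ethanol range. Its fold was 2.19, a log2(FC) of 1.13 with a standard error of 0.041 (adjusted p = 3.13e-29, quasi-likelihood test of edgeR). ATG14, which directs the lipid kinase to the site of autophagosome formation, had 4.09, 4.07, 4.56 and 4.25 FPKM in ethanol, against 5.39, 5.50, 5.57 and 5.84 FPKM in O/A. This was a log2(FC) of 0.44 (adjusted p = 5.25e-09 from edgeR), with no overlap between the groups.

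Both downregulated members belong to the same group. PIK3R4 (VPS15), the regulatory subunit that every form of this lipid kinase contains, had 9.27, 9.22, 9.57 and 10.20 FPKM in ethanol, against 6.56, 6.67, 6.61 and 6.60 FPKM in O/A. The O/A libraries lay close together and below all ethanol libraries. The fall was 1.40-fold, a log2(FC) of -0.49 with a standard error of 0.046 (adjusted p = 3.08e-13 from edgeR). AMBRA1, a BECN1-binding scaffold that also works with ubiquitin ligases, had 4.99, 4.43, 4.66 and 4.76 FPKM in ethanol, against 3.09, 3.23, 3.37 and 3.36 FPKM in O/A. Its log2(FC) was -0.48 with a standard error of 0.054 (adjusted p = 4.96e-11 from edgeR), and the groups did not overlap.

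The catalytic core changed less. PIK3C3 (VPS34), the lipid kinase itself, lay between 3.87 and 4.09 FPKM in ethanol and between 3.22 and 3.56 FPKM in O/A. Its libraries did not overlap, while its log2(FC) of -0.18 (adjusted p = 2.11e-04 from edgeR) stayed within the fold threshold. BECN1, the scaffold that holds the complex together, had a log2(FC) of 0.12, also within it. UVRAG, which takes the place of ATG14 in the endosomal form of the complex, had 2.85 ± 0.219 FPKM in ethanol, against 2.92 ± 0.185 FPKM in O/A (SD, n = 4). Its log2(FC) of 0.08 was not past the test (adjusted p = 0.321 from edgeR). RUBCN (Rubicon), which inhibits the UVRAG form, had a log2(FC) of 0.16 with overlapping groups.

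**Figure D2:**
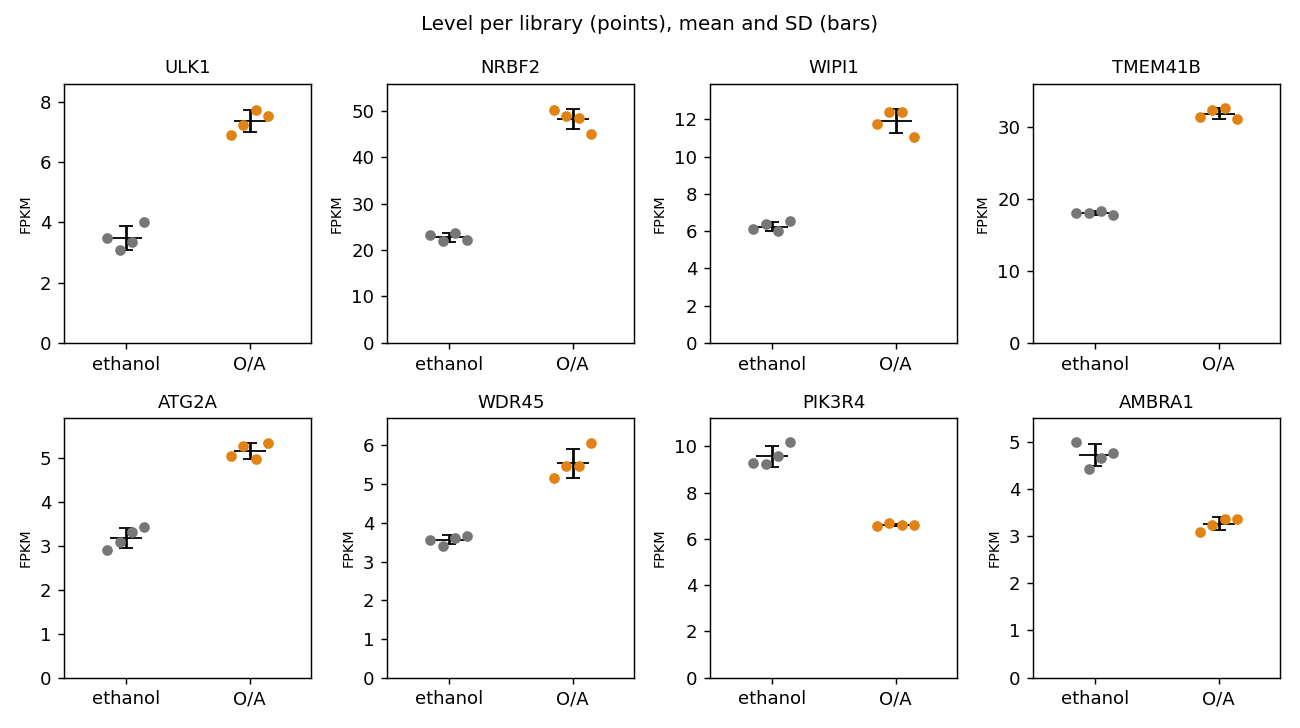
Level in FPKM (y axis, from 0) of the 6 members with the largest increases and of the 2 downregulated members, in ethanol and O/A (x axis). Points are libraries and bars the mean and SD of 4. In each panel the conditions do not overlap.

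Among the PROPPINs, the proteins that bind PI3P on the forming membrane, 2 of 4 rose. WIPI1 had 6.09, 6.37, 5.99 and 6.52 FPKM in ethanol, against 11.74, 12.42, 12.42 and 11.06 FPKM in O/A. The conditions did not come near each other. Its fold was 1.97, a log2(FC) of 0.98 with a standard error of 0.054 (adjusted p = 1.77e-21, quasi-likelihood test of edgeR). WIPI2, which recruits ATG16L1 and is the paralog used for LC3 conjugation, had 10.5, 10.45, 10.74 and 10.37 FPKM in ethanol, against 10.5, 10.38, 10.93 and 9.92 FPKM in O/A. The groups overlapped and the log2(FC) was 0.04 (adjusted p = 0.405 from edgeR).

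WDR45 (WIPI4), which binds ATG2, had 3.56, 3.40, 3.62 and 3.67 FPKM in ethanol, against 5.16, 5.46, 5.47 and 6.07 FPKM in O/A. Its log2(FC) was 0.68 with a standard error of 0.063 (adjusted p = 2.49e-13 from edgeR), with no overlap. WDR45B (WIPI3), its closest relative, was expressed at a higher level, 26.1 ± 0.797 FPKM in ethanol, against 29.5 ± 0.410 FPKM in O/A (SD, n = 4). Its libraries did not overlap either, but its log2(FC) of 0.22 stayed within the fold threshold.

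Of the 5 lipid transfer proteins and scramblases, TMEM41B and ATG2A rose. TMEM41B, a scramblase of the ER, had 18.07, 18.06, 18.38 and 17.81 FPKM in ethanol, against 31.44, 32.37, 32.64 and 31.12 FPKM in O/A. The spread within each condition was small beside the gap between them. Its fold was 1.82, a log2(FC) of 0.86 with a standard error of 0.033 (adjusted p = 1.60e-28 from edgeR). VMP1, the other ER scramblase of this kind, had 32.40, 31.98, 33.75 and 34.95 FPKM in ethanol, against 31.99, 34.45, 34.12 and 35.02 FPKM in O/A. These ranges overlapped, and its log2(FC) of 0.07 (adjusted p = 0.0408 from edgeR) was within the fold threshold.

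ATG2A, a bridge-like protein that channels lipid from the ER to the forming membrane, had 2.91, 3.09, 3.32 and 3.42 FPKM in ethanol, against 5.04, 5.26, 4.97 and 5.34 FPKM in O/A. Its fold was 1.67, a log2(FC) of 0.74 with a standard error of 0.053 (adjusted p = 3.62e-17 from edgeR), and the groups did not overlap. Its paralog ATG2B had 2.69 ± 0.207 FPKM in ethanol, against 2.76 ± 0.252 FPKM in O/A (SD, n = 4), a log2(FC) of 0.08 that did not pass the test (adjusted p = 0.313 from edgeR). ATG9A, the scramblase of the seed vesicles, had overlapping groups and a fitted change of -0.04 on the log2 scale (adjusted p = 0.608 from edgeR).

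The ATG12 conjugation system changed unevenly. ATG12, the ubiquitin-like protein that is joined to ATG5, had 6.44, 6.71, 6.83 and 6.57 FPKM in ethanol, against 8.23, 8.16, 8.03 and 8.06 FPKM in O/A. This was a log2(FC) of 0.34 with a standard error of 0.038 (adjusted p = 8.50e-11 from edgeR), without overlap. ATG16L2, a relative of ATG16L1 whose part in autophagy is less clear, had 2.32, 2.31, 2.69 and 2.94 FPKM in ethanol, against 3.19, 3.61, 4.13 and 3.51 FPKM in O/A. Its log2(FC) of 0.53 had the largest standard error of the called members, 0.087 (adjusted p = 7.19e-05 from edgeR). The other 4 genes were not called. ATG5, the acceptor of ATG12, had a log2(FC) of 0.22 and ATG7, the E1-like enzyme that activates both ATG12 and ATG8 proteins, one of -0.22. Both had an adjusted p of at most 0.05 and libraries that did not overlap. ATG10, the E2-like enzyme for ATG12, and ATG16L1, which places the conjugate on the membrane, had log2(FC) of -0.03 and -0.07 with adjusted p above 0.05.

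Among the 5 genes for ATG8 processing, ATG4D alone was called. The ATG4 proteases cut ATG8 proteins before they are attached to lipid and release them again, and ATG4B is the main one acting on LC3. ATG4D had 5.80, 6.05, 5.94 and 5.79 FPKM in ethanol, against 7.22, 7.40, 7.98 and 7.92 FPKM in O/A, a log2(FC) of 0.42 with a standard error of 0.071 (adjusted p = 1.63e-06 from edgeR). The groups did not overlap. ATG4C was lower in O/A, at 4.61, 5.00, 4.63 and 4.87 FPKM against 6.01, 5.68, 6.02 and 5.15 FPKM in ethanol, but its log2(FC) of -0.21 stayed within the fold threshold. It reached -0.25 and was called without ethanol replicate 4. ATG4B (0.11), ATG4A (0.08) and ATG3 (0.12), the E2-like enzyme that transfers ATG8 to lipid, were not called. EPG5, which tethers the finished autophagosome to late endosomes and lysosomes, had 2.12 ± 0.194 FPKM in ethanol, against 2.37 ± 0.163 FPKM in O/A (SD, n = 4). Its log2(FC) of 0.20 was not called, and it was 0.26 and called without ethanol replicate 4.

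The balance between related members is described by the log2 ratio of their levels within each library, for 10 pairs chosen with the changes of their members known. A ratio of a member that changed to one that did not carries the change already given, so these values are a description without a test, and the share of other gene pairs that separate was not computed. The ratio of ULK1 to ULK2 changed most, by 1.28 on the log2 scale (SD over 4 libraries 0.22 in ethanol and 0.19 in O/A). In FPKM, ULK1 stood at 0.964 times ULK2 in ethanol and at 2.37 times in O/A. The ratio of WIPI1 to WIPI2 changed by 0.93, from 0.594 to 1.14 in FPKM. In FPKM, WIPI1 was thus below WIPI2 in every ethanol library and above it in every O/A library. This crossing depends on the division by exonic length. In scaled CPM, which carry no such division, WIPI1 stayed below WIPI2 in every library of both conditions. ULK1 and ULK2 had overlapping FPKM ranges in ethanol. ATG2A against ATG2B changed by 0.66, from 1.19 to 1.88 in FPKM, and WDR45 against WDR45B by 0.45, while WDR45 remained the lower of these paralogs at 0.188 times WDR45B in O/A.

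Ratios of subunits that replace each other or act side by side are given in the same way. ATG14 against UVRAG changed by 0.35 in favour of ATG14, the autophagy-specific subunit. VMP1 against TMEM41B changed by -0.79, from 1.84 to 1.06 in FPKM, so that TMEM41B came close to the level of VMP1 on that scale. ATG16L1 against ATG16L2 changed by -0.60, from 2.47 to 1.61 in FPKM. Against ATG4B, ATG4D changed by 0.29 and ATG4C by -0.32. The ratio of ATG4A to ATG4B was the exception, with a difference of -0.04 and overlapping libraries.

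**Figure D3:**
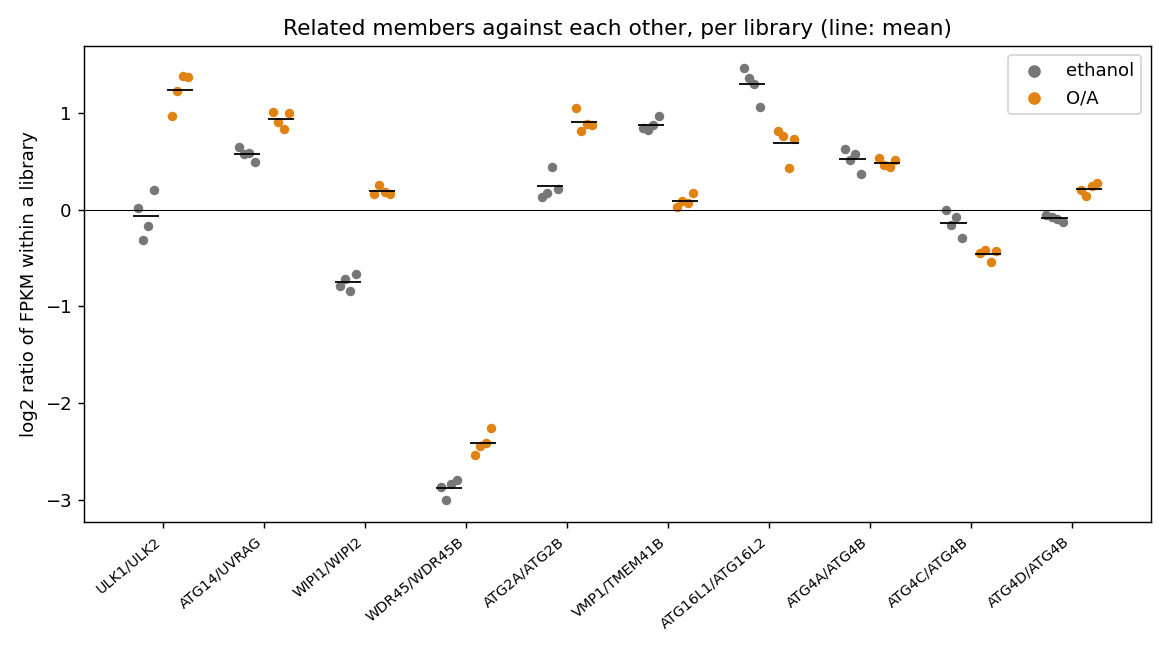
Log2 ratio of the FPKM values of related members within each library (y axis) for the 10 pairs (x axis), with ethanol in grey, O/A in orange and the mean as a line. The conditions overlap for ATG4A/ATG4B, and the means of ULK1/ULK2, WIPI1/WIPI2 and ATG4D/ATG4B cross from below 0 to above it.

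Per exonic length of the gene, the members spanned 2.12 FPKM (EPG5) to 33.3 FPKM (VMP1) in ethanol. VMP1 was followed by WDR45B at 26.1, NRBF2 at 22.7, TMEM41B at 18.1 and BECN1 at 17.6 FPKM. The ranges over libraries of these neighbours did not overlap, apart from those of TMEM41B (17.81 to 18.38 FPKM) and BECN1 (17.06 to 18.24 FPKM). In O/A, NRBF2 took the first place at 48.1 FPKM, ahead of VMP1 at 33.9 FPKM, TMEM41B at 31.9 FPKM and WDR45B at 29.5 FPKM, where the ranges of VMP1 and TMEM41B overlapped. ULK2 and PIK3C3, catalytic subunits, stood at 3.13 and 3.38 FPKM in O/A, below ULK1 at 7.36 FPKM. ULK1 and ULK2 had 3.48 and 3.63 FPKM in ethanol, where their ranges overlapped, and PIK3C3 had 3.96 FPKM beside 9.57 FPKM of its partner PIK3R4. EPG5 and ATG10 were the lowest 2 members in O/A too, at 2.37 and 2.42 FPKM, and their ranges overlapped. EPG5 has 22221 exonic bases, and in ethanol it had 46.6 CPM beside 13.7 for ATG10.

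Most called increases lay in shorter genes, as did 1978 of the 2350 upregulated genes among all genes tested. Of the 25 members that span fewer than 100000 bases of the genome, 12 were upregulated (48%) and 1 downregulated (4%). Their median log2(FC) was 0.22. The 9 members that span more include UVRAG, ATG5, ATG7 and ATG10. Of these 9, 1 was upregulated (RB1CC1, 11.1%) and 1 downregulated (AMBRA1, 11.1%), with a median of 0.07. Over all genes tested, 16.1% of the shorter and 14.3% of the longer genes were upregulated, with medians of -0.00 and 0.01. These are descriptions of the members and were not tested.

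Other genes of the pathway from 3 lists gave a setting for these values. Among the ATG8 proteins, the substrates of the conjugation system, 5 of 7 passed the count minimum and 3 of them rose, with a median of 0.63. MAP1LC3B (LC3B) lay between 23.71 and 24.51 FPKM in ethanol and between 51.55 and 55.25 FPKM in O/A, a log2(FC) of 1.20, close to those of NRBF2 and ULK1. MAP1LC3B2 (1.11) is a near-identical copy of it, so that reads may have been exchanged between them and its value is uncertain. MAP1LC3B2 is nevertheless counted among the 3 and in the median. GABARAPL1 rose by 0.63 on the log2 scale, and GABARAP had the lowest value, 0.15.

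Of 21 genes tested for fusion of the finished autophagosome with lysosomes, 4 rose (19.0%) and 3 fell (14.3%), close to the 15.8% and 18.9% of all genes tested, with a median log2(FC) of 0.07. The extremes were PLEKHM1, an adaptor of RAB7 and the HOPS tether, at 0.74, and VPS18, a core HOPS subunit, at -0.85. VPS18 had 8.56, 8.53, 8.77 and 8.08 FPKM in ethanol, against 4.48, 4.43, 4.56 and 4.79 FPKM in O/A. RAB2B (0.64), a small GTPase that binds HOPS, rose, and MON1A (-0.53), part of a RAB7 exchange factor, fell. Their paralogs had higher levels and other changes. RAB2A (-0.02) was not called, at 30 FPKM in ethanol beside 5.31 for RAB2B. MON1B (0.29) rose, at 9.64 FPKM in ethanol beside 1.89 for MON1A. Among regulators of membrane supply and nucleation, 6 of 21 tested rose (28.6%) and 2 fell (9.52%), with a median of 0.16. C9orf72, which acts in a complex with SMCR8 and WDR41, showed the largest change there, a log2(FC) of 0.94, and RAB33B, which binds ATG16L1, had 0.56. BCL2, an inhibitor of BECN1, had the lowest value, -0.78, on 18 to 52 counts per library. The related BCL2L1 stood at 73.4 FPKM in ethanol, beside 0.175 for BCL2. Its log2(FC) of 0.20 was within the fold threshold, with every O/A library above every ethanol library.

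**Figure D4:**
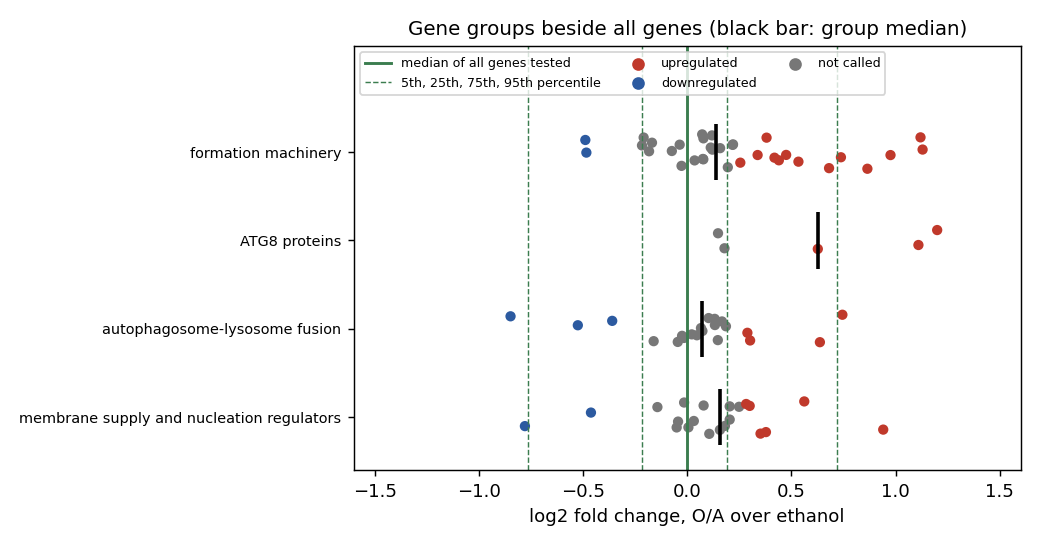
Log2 fold change of O/A over ethanol (x axis) of the tested genes of 4 groups (rows), with group medians as black bars and the median and percentiles of all 14893 genes tested as green lines. The medians are 0.14 for the formation machinery, 0.63 for the ATG8 proteins, 0.07 for fusion and 0.16 for membrane supply and nucleation; the called genes lie on both sides of 0 in every row except that of the ATG8 proteins.

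Some members share exons with genes on the opposite strand, and whether reads were counted by strand is not given in the sources used here. In GENCODE 44, FBXO34 covers 20.8% of the exonic bases of ATG14, VGLL4 18.1% of those of ATG7, and KRI1 14.7% of those of ATG4D. The log2(FC) of these partners were -0.25, -0.33 and -0.27. For ATG14 and ATG4D the partner changed in the opposite direction to the member, and for ATG7 in the same. For the other 9 members with such a partner of at least 50 counts the shared part was 1.06% to 7.98%. Of these, ATG10 shares 6.87% with RPS23, which had 11388 to 13238 counts per library, against 220 to 271 for ATG10. The effect of this partner on the value of ATG10 was not tested. Pseudogenes named after members held at most 14 counts in a library, and at most 0.953% of the counts of the parent gene, for ATG12.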

How the data were processed

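Polyadenylated RNA of 8 libraries was sequenced as paired-end reads. The authors aligned them to GRCh38.p13 with HISAT2 2.0.1 and counted them per Ensembl gene with HTSeq 0.6.1, and the deposited counts are not normalized. The FPKM values the authors deposited were within 0.005 of the count divided by exonic length and library total. Exonic lengths and coordinates are those of the deposited table, and 33 of 34 members have the same start and end in GENCODE 44. A second deposited table holds the comparison made by the authors with DESeq2 (fold changes and p-values) and was not used.

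Groups and replicate numbers came from the sample titles, and the time of treatment from the study. The 14893 genes that reached 10 counts in 4 or more libraries were compared with edgeR 4.0.16 in R 4.3.3 (TMM scaling, robust quasi-likelihood test, Benjamini-Hochberg adjustment over all genes tested). A standard error is the fitted log2(FC) divided by the root of the F statistic. FPKM values carry no TMM scaling, which raises O/A over ethanol by 0.046 on the log2 scale. Pairs of members were described as differences of the log2 ratio of scaled CPM plus 0.5. Tests were checked on simulated data, in which edgeR recovered 76 of 99 genes changed by 0.5 on the log2 scale and 88 of 95 changed by 1, with 1 false call among 14741 genes. Only these genes were changed there, whereas 34.7% of the genes tested were called in the data. These rates may therefore not carry over. Libraries of a condition differed by more than counting noise (chi-square per degree of freedom 1.76 to 5.74 over 11727 genes). The members, sub-complexes, pairs, motifs and other lists were chosen from general knowledge with earlier results of these data known. The genes named are all members, and from the other lists those called with an absolute log2(FC) above 0.5, the extremes, and relatives of some of these. Alternatives were DESeq2 1.42.0, limma 3.58.1 on log2(FPKM + 0.1), log2(FPKM + 1) and quantile-normalized log2 CPM, other filters, scaling and fold thresholds, the replicate number as a block, and each library left out.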

Additional observations from a re-analysis of the deposited data

Results flagged for a closer look

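In 68 groups of 4 libraries (34 members in 2 conditions), 1 group had a library far from the other 3 by Dixon's criterion, where chance gives about 1 in 20, or 3.4. ATG4B had 39.6 TMM-scaled CPM in ethanol replicate 1 against 41.3 to 41.6 in the other ethanol libraries.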

How the results depend on the processing

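The count of members moved with the fold threshold. With no fold threshold 21 members were upregulated and 6 downregulated (7999 of all genes called), above 0.5 it was 7 and 0 (2636 genes), and above 1 it was 2 and 0 (797 genes). With edgeR, no member lay below -0.5 at an unadjusted p under 0.05 either, and DESeq2 called 0, but PIK3R4 and AMBRA1 lay close to -0.5 and passed it on log2(FPKM + 0.1) (-0.525 and -0.516) and without ethanol replicate 2 (-0.502 and -0.506). On log2(FPKM + 0.1), 4 members were downregulated, as ATG7 (-0.26) and ATG4C (-0.25) joined PIK3R4 and AMBRA1. Apart from the fold threshold, 12 to 14 members were upregulated in the alternatives. ATG13 lost its call on log2(FPKM + 0.1) (0.21), log2(FPKM + 1) (0.19), without a filter (0.25), under quantile normalization (0.21) and without O/A replicate 2 (0.24), and no other call was lost in these alternatives. Directions changed for members near 0. WIPI2 was -0.012 on log2(FPKM + 0.1), -0.011 on log2(FPKM + 1) and -0.00298 under quantile normalization, which took VMP1 to -0.00115 and ATG10 to 0.0348. With each library left out, ATG9A lay between -0.0944 and 0.00813 and ATG10 between -0.0725 and 0.0426. The cause was not tested. The 10 pair ratios kept their direction on both FPKM scales and with each library left out. Same-numbered libraries did not deviate together (correlations of 0.0443, -0.00324, -0.0281 and 0.0744), and a replicate block left 13 members upregulated and 2 downregulated. Depth limits ATG10 and ATG4D most, with 220 to 350 counts per library.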
